A study of Mus musculus with 6 samples.

Results

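The BCL2 family decides at the mitochondrial outer membrane whether a cell dies by apoptosis, and 10 of its genes were followed here in whole mouse testis: the effectors Bax and Bak1, the BH3-only genes Bad, Bid, Bbc3 and Bcl2l11, and the anti-apoptotic genes Bcl2, Bcl2l1, Bcl2l2 and Mcl1. They were taken by gene symbol, and all 10 were found among the 38715 genes of the deposited table. The study set Middle testes against Control testes, with 3 libraries each. The series title concerns MES exposure in early life, testosterone production and TGF-β1, and Middle is taken as the exposed group, since Control and Middle are the only names in the library titles. The sources used here give no strain, age or dose, and no treatment shared by both groups. Nor do they say whether each library is a separate animal, so the spread behind every p-value may be technical.

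BH3-only proteins sense damage or lost survival signals, and they either engage the effectors or tie up the anti-apoptotic proteins that hold the effectors in check. Once free, BAX and BAK form pores in the mitochondrial outer membrane, cytochrome c escapes, and caspases are activated. In the testis this machinery removes surplus germ cells during normal spermatogenesis. In mice, loss of Bax or of Bcl2l2 leaves males infertile.

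Expression was given as RPKM, the reads of a gene per kilobase of its exons scaled to a fixed library size. Summed over genes, a library had 38820385 to 58389391 reads. All 12 spermatocyte, 14 spermatid and 12 Sertoli cell markers had reads, as the label testis requires, while the 5 epididymal markers in the table summed to at most 0.461 RPKM in any library. Middle replicate 1 stood apart from the other libraries on the first principal component, which held 50.4% of the variance. Reads were counted for every gene whose exons they touched, on either strand: a gene lying wholly inside another gene's exons had no more reads than that gene in any library, in 517 of 517 pairs on the same strand and 368 of 368 on opposite strands. A member that shares exon bases with a neighbour therefore carries that neighbour's reads there.

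No member passed the test between Middle and Control. With a minimum mean of 1 RPKM in a group, 7 of the 10 members were tested among 15040 genes, and 0 passed an adjusted p of 0.05 (limma on log2(RPKM + 1), Benjamini-Hochberg over all tested genes), where 0.0532% of all tested genes did (0.00665% higher and 0.0465% lower in Middle). An unadjusted p under 0.05 was reached by 1 of the 7, against 20.7% of all tested genes, and limma-voom on the recovered reads also called 0 members of the 10 it tested. Bax, Bad and Mcl1 were the 3 members whose Middle libraries all lay above all Control libraries. The groups did not overlap for 29.3% of all tested genes, and for 17.9% with Middle higher. The direction was above 0 for 6 of the 7, with a median log2 difference of 0.06, against 55.9% and a median of 0.03 over all tested genes. With the trend of each library on GC content removed, 3 of the 7 were above 0.

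The starts of these 3 genes are shown because they are the members whose groups did not overlap. Each line gives the 250 bases before the annotated start, 5′ to 3′ on the gene's strand, from RefSeq on GRCm38.p6. Capitals mark matches on either strand to the GC box (GGGCGG), the CCAAT box and the E-box (CACGTG). Bax lies at chr7:45466899-45467148 on the minus strand, the first of 2 listed starts of Bad at chr19:6941611-6941860 on the plus strand, and Mcl1 at chr3:95658471-95658720 on the plus strand.
Bax: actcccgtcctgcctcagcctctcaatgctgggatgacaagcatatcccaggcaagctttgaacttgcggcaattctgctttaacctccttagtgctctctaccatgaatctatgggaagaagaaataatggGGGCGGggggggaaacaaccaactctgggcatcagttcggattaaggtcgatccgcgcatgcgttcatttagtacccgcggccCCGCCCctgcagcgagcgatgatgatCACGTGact
Bad: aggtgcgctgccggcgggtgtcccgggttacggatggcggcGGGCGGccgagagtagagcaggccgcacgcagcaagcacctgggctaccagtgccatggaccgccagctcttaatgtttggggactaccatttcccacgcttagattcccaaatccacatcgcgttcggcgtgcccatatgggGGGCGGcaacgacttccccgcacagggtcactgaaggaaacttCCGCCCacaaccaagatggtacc
Mcl1: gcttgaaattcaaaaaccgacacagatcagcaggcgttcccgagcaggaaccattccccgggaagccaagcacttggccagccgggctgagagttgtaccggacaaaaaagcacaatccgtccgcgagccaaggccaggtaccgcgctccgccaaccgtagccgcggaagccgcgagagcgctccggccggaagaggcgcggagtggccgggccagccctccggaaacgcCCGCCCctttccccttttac
The Bax window held 2 GC boxes and 1 E-box, the E-box lying 9 to 4 bases before the start. The Bad window held 3 GC boxes and the Mcl1 window held 1. The window of the second listed start of Bad, not shown, held 0 GC boxes and 1 CCAAT box. A GC box was present in 11 of the 16 windows listed for the 10 members, and in 32.7% of all 32851 windows of this length in the RefSeq table. Some members list several starts, so the 16 windows are not all separate promoters, and they held 47.6% to 81.6% GC. CACGTG was present in 2 of the 16 and in 6.02% of all. The GATA motif (AGATAA, or the same with T as its first letter or G as its last, or both, on either strand), searched because the title names GATA2, was absent from these 3 windows and present in 1 window each of Bid and Bcl2l1, against 26.5% of all windows. A match says only that these letters are there.

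The members differed in level far more than the groups did. Over the 6 libraries the order of mean RPKM was Bad at 39.1, Mcl1 at 17.6, Bcl2l1 at 15.2, Bak1 at 4.45, Bax at 3.90, Bcl2l2 at 1.49, Bcl2l11 at 1.11, Bid at 0.643, Bbc3 at 0.457 and Bcl2 at 0.0406. This order was the same in the Middle means and in the Control means. Neighbours in it were separate in every library except Bak1 and Bax, and Bid and Bbc3, whose ranges overlapped and whose order held in 5 of the 6 libraries. Bax, Bak1, Bid and Bcl2l2 each share exon bases with a gene that had more reads. Their places in this order therefore cannot be assigned to these genes alone. Bad, with any reads of its neighbours counted in, lay above 87.7% of the tested genes. Bcl2, the gene that names the family, had only 10 to 34 reads in a library.

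**Figure D1:**
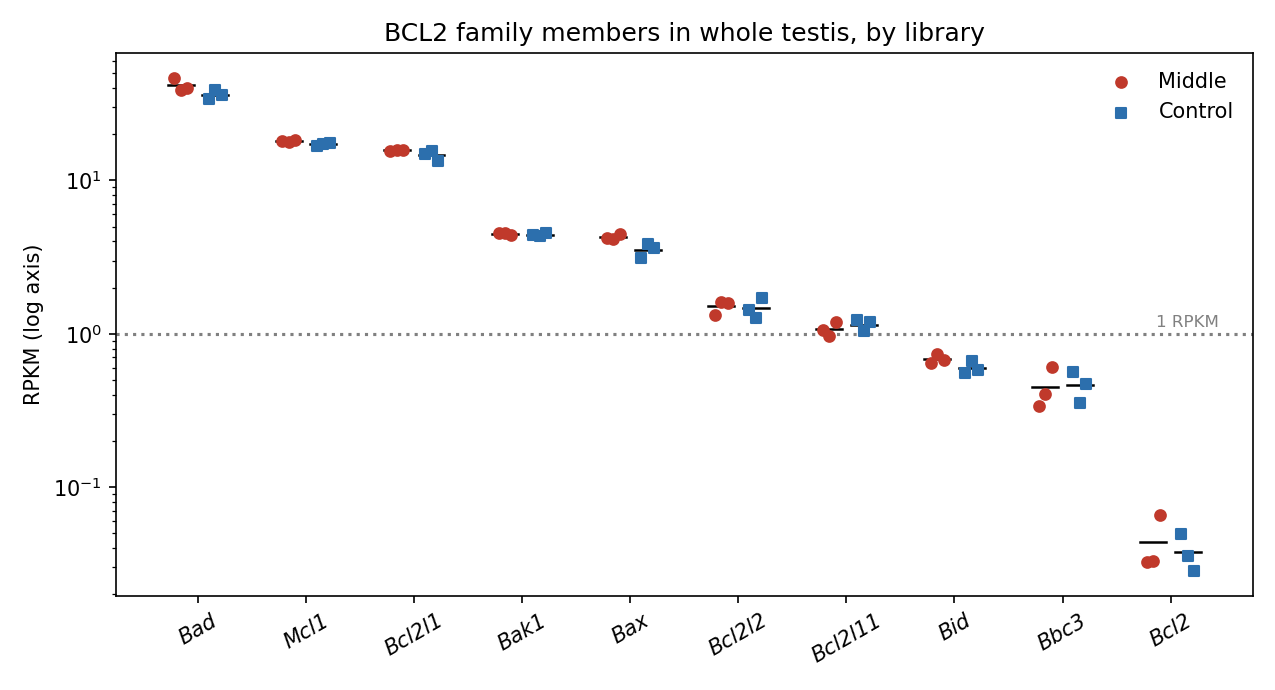
RPKM of the 10 members in each library on a log axis, with Middle (circles) left of Control (squares), bars for group means and a dotted line at 1 RPKM. Levels, with any reads of overlapping genes counted in, fall from 39.1 RPKM for Bad to 0.0406 for Bcl2. The groups lie close together for every member.

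The effectors come first. Bax (GRCm39 chromosome 7, 45111121 to 45116322) is the effector that stays in the cytosol until it is activated. It had 4.22, 4.13 and 4.47 RPKM in Middle replicates 1 to 3, against 3.12, 3.85 and 3.63 RPKM in Control replicates 1 to 3. All Middle libraries were above all Control libraries, with a gap of 0.288 RPKM between the nearest pair. Bax averaged 4.28 ± 0.18 RPKM in Middle and 3.53 ± 0.37 in Control (SD, n = 3 each), a ratio of 1.21. The log2 difference of 0.22 (SE 0.08, 95% interval 0.03 to 0.41) did not pass over all genes (adjusted p = 0.202, limma), and with the GC trend removed it was 0.13 (adjusted p = 0.349, limma). The values rested on 222 to 398 reads in a library, and 192 of the 1576 exon bases of Bax are shared with Gm45808, a gene on the same strand that had 12.1 RPKM in Middle and 11.1 in Control. Gm45808 had 2766 reads in all, against 1856 for Bax, so how much of the Bax value comes from the shared bases cannot be told.

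Bak1 (chromosome 17, 27238784 to 27247983) encodes the effector that sits in the mitochondrial membrane already in healthy cells. It had 4.54, 4.52 and 4.41 RPKM in the Middle libraries, against 4.38, 4.33 and 4.53 RPKM in the Control libraries. The groups overlapped, with all libraries within a narrow range. The log2 difference was 0.02 (SE 0.06, 95% interval -0.12 to 0.16; adjusted p = 0.859, limma). Its exons share 437 of 2407 bases with Ggnbp1 on the opposite strand, which had 303 RPKM in Middle and 253 in Control, and 177 with Gm50253, on that strand too, which had 348 RPKM in Middle and 290 in Control. How much of the Bak1 value comes from those stretches cannot be told from these values.

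The BH3-only genes were led by Bad in every library. Bad (chromosome 19, 6919229 to 6929267) encodes a protein that binds and blocks some, not all, of the anti-apoptotic members and that survival kinases switch off by phosphorylation. It had 46.8, 38.89 and 40.01 RPKM in the Middle libraries, against 33.8, 38.88 and 36.05 RPKM in the Control libraries. The groups did not overlap, but Middle replicate 2 and Control replicate 2 were 0.0134 RPKM apart. Bad averaged 41.9 ± 4.29 RPKM in Middle and 36.3 ± 2.53 in Control (SD, n = 3 each), a ratio of 1.16. The log2 difference of 0.20 (SE 0.09, 95% interval -0.004 to 0.41) did not pass (adjusted p = 0.246, limma). It was 0.12 without Middle replicate 1, the highest library, and 0.11 with the GC trend removed.

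Part of the Bad signal may belong to neighbours on the opposite strand. Of its 2558 exon bases 1048 are shared with Gm56656 and 524 with Gpr137. All reads of Gm56656 together amount to 33.4% of the reads of Bad, and all those of Gpr137 to 61.7%, so these are the largest shares that either gene could hold. The shares may add up, so the level given for Bad is an upper limit. Gm56656 had 33.3 RPKM in Middle and 27.7 in Control. Nearly its whole length lies inside Bad.

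Bcl2l11 (chromosome 2, 127967958 to 128004467) encodes BIM, which binds every anti-apoptotic member. It was the one tested member with a difference below 0. It had 1.063, 0.969 and 1.19 RPKM in Middle and 1.22, 1.03 and 1.18 RPKM in Control, and the groups overlapped. The log2 difference was -0.05 (SE 0.08, 95% interval -0.24 to 0.14; adjusted p = 0.721, limma).

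Bid and Bbc3 lay below the minimum of 1 RPKM in both groups and were tested only without that minimum. Bid (chromosome 6, 120868891 to 120893814) links death receptors to mitochondria, since caspase 8 cuts it into its active form. It had 0.642, 0.743 and 0.679 RPKM in Middle, against 0.553, 0.661 and 0.580 RPKM in Control. Only Control replicate 2 reached into the Middle range, and the means gave a ratio of 1.15. Limma-voom on its 80 to 137 reads a library gave a log2 difference of 0.19 (SE 0.17, 95% interval -0.17 to 0.56; adjusted p = 0.57). Of its 3550 exon bases 628 are shared with Bcl2l13, which had about 10 times as many reads in all, so its reads cannot be assigned to Bid alone.

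Bbc3 (chromosome 7, 16042318 to 16052130) encodes PUMA, a direct target of p53. It had 0.338, 0.404 and 0.609 RPKM in Middle and 0.564, 0.355 and 0.473 RPKM in Control. The groups overlapped almost wholly, and both the lowest and the highest library were Middle libraries. With 34 to 73 reads a library, the limma-voom interval of the log2 difference ran from -0.64 to 0.60, so a change of about 1.5 times in either direction was within the error.

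Among the anti-apoptotic genes, Mcl1 and Bcl2l1 together made up 94.7% to 96.2% of the summed RPKM in every library. Mcl1 (chromosome 3, 95566099 to 95570487) encodes a short-lived protein whose level follows its synthesis closely. It had 18.1, 17.7 and 18.2 RPKM in Middle, against 16.7, 17.4 and 17.7 RPKM in Control. The groups did not overlap, by 0.0369 RPKM. Mcl1 averaged 18.03 ± 0.28 RPKM in Middle and 17.3 ± 0.53 in Control (SD, n = 3 each), a ratio of 1.05. The log2 difference of 0.06 (SE 0.06, 95% interval -0.07 to 0.19) did not pass (adjusted p = 0.547, limma), and with the GC trend removed it was -0.0076.

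Bcl2l1 (chromosome 2, 152622588 to 152673648) encodes BCL-xL, on which germ cells of the mouse embryo depend. It had 15.5, 15.8 and 15.7 RPKM in Middle, against 14.96, 15.6 and 13.4 RPKM in Control. The Middle libraries lay within a narrow range, and Control replicate 2 reached into it. The log2 difference was 0.10 (SE 0.07, 95% interval -0.07 to 0.26; adjusted p = 0.436, limma), and 0.04 without Control replicate 3, the lowest library. The values are per gene, so the long and short forms of its transcript are summed.

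Bcl2l2 (chromosome 14, 55120834 to 55125691) encodes BCL-W, which adult mouse testis needs to keep its germ and Sertoli cells. It had 1.33, 1.62 and 1.59 RPKM in Middle and 1.42, 1.27 and 1.71 RPKM in Control. The groups overlapped over most of their range. The log2 difference was 0.03 (SE 0.09, 95% interval -0.19 to 0.25; adjusted p = 0.865, limma). Of its 4462 exon bases 594 are shared with Gm20521, a gene on the same strand at 138 RPKM in Middle and 152 in Control. Gm20521 had 54049 reads in all, against 1985 for Bcl2l2. How much of the Bcl2l2 value comes from the shared bases therefore cannot be told.

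Bcl2 (chromosome 1, 106465908 to 106642004), the founding anti-apoptotic gene, had 0.0323, 0.0328 and 0.0658 RPKM in Middle and 0.0490, 0.0355 and 0.0281 RPKM in Control. Middle replicate 3 was the highest and Control replicate 3 the lowest. The limit that a count of 0 allows, taken as 3 fragments or 6 reads, was at most 0.0169 RPKM for this gene, and every library lay above it. This limit reflects counting error alone, as PCR copies of 1 molecule were not told apart. Of the exon bases of Bcl2, 558 are shared with D630008O14Rik on the opposite strand, which had 9 reads in all, against 115 for Bcl2. Some of these few reads may therefore belong to that gene. The limma-voom interval of the log2 difference, -0.70 to 1.05, left a doubling within the error.

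**Figure D2:**
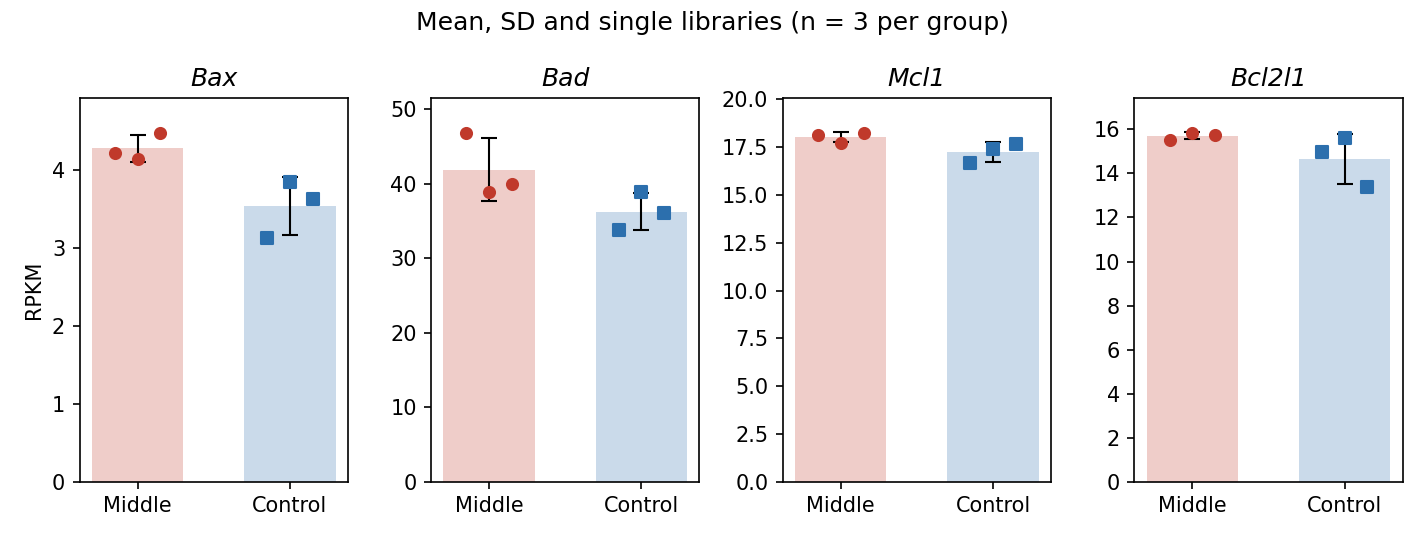
RPKM of Bax, Bad, Mcl1 and Bcl2l1 in Middle and Control, with single libraries as points, bars for means and whiskers for the SD (n = 3 each). The Middle points of Bax all lie above the Control points, by at least 0.288 RPKM, while those of Bad and Mcl1 do so by less than 0.04 RPKM.

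**Figure D3:**
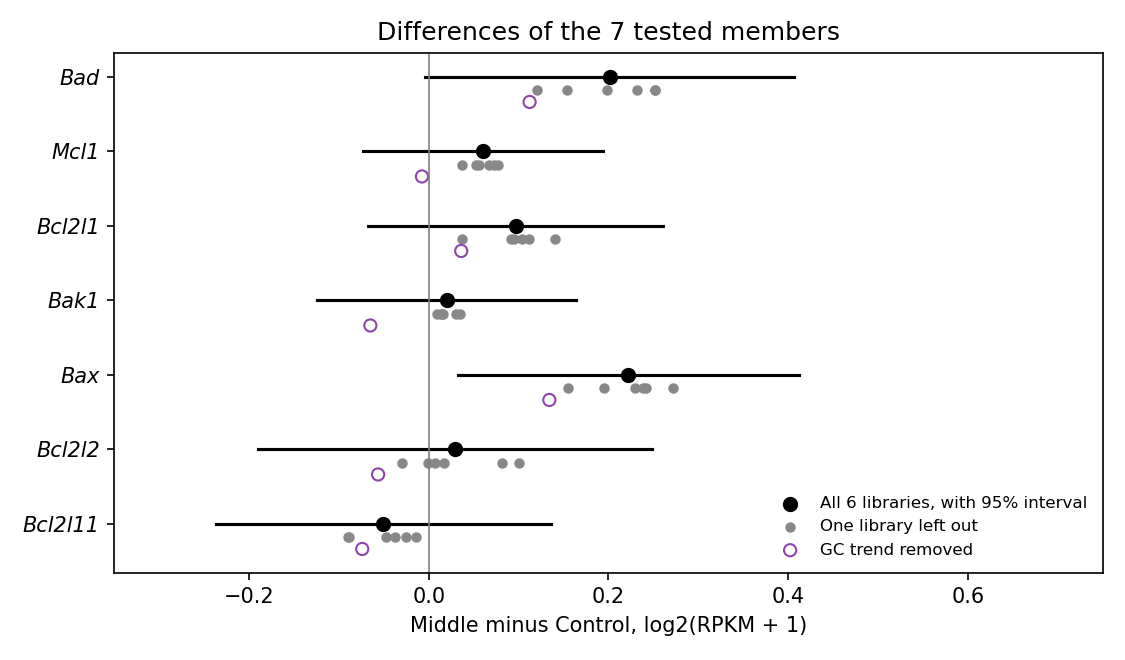
Difference between Middle and Control on the log2(RPKM + 1) scale for the 7 tested members, with the 95% interval (black), the values with 1 library left out (grey) and the value with the GC trend removed (open circles). Bax has an interval above 0, from 0.03 to 0.41, before adjustment over all genes.

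Several values are given beside Bax, Bad and Mcl1, and only some of them moved with the groups. Over all tested genes, 55.9% lay above 0, and without overlap 17.9% were higher and 11.4% lower in Middle. The summed RPKM of the 12 Sertoli markers was 320 to 345 in Middle and 301 to 310 in Control. All 11 that were tested lay above 0 (median log2 difference 0.17), with 4 higher and 0 lower without overlap. Of the 14 spermatid markers, 11 lay below 0 (median -0.19), and 5 were lower and 0 higher in Middle without overlap. Their sum, led by Prm2, overlapped, at 27263 to 29836 RPKM in Middle and 29016 to 32003 in Control. The 12 spermatocyte markers went both ways, with 4 above and 8 below 0 (median -0.056), 2 higher and 3 lower without overlap. Their sum, led by Ldhc, was 2047 to 2092 RPKM in Middle and 2114 to 2162 in Control. Of the 8 peritubular markers 7 lay above 0 (median 0.19), with 3 higher and 1 lower without overlap. Their sum overlapped, at 193 to 224 RPKM in Middle and 206 to 229 in Control. Of the 7 spermatogonium markers tested 5 lay above 0 (median 0.18), with 1 higher and 2 lower without overlap. Of the 9 Leydig markers tested 6 lay above 0 (median 0.16), and of the 6 macrophage and blood markers tested 5 did (median 0.07). Each of these lists had 1 marker higher and 1 lower without overlap. The sums of all 3 lists overlapped. None of these markers passed the test. No marker of these lists was at 0 in all libraries. The 83 ribosomal protein genes summed to 7997 to 10153 RPKM in Middle and 7251 to 7731 in Control. The rank correlation of a library's deviations with GC content was 0.461, 0.020 and -0.067 in Middle replicates 1 to 3 and -0.303, -0.223 and -0.254 in Control replicates 1 to 3. The transcripts of Bax, Bad and Mcl1 held 58.4%, 58.7% and 54.9% GC. This does not set them apart: Bak1 held 57.6% and Bcl2l2 57.7%, and all members ran from 45.3% for Bcl2 to 68.6% for Bbc3. The part of these shifts in the members' values was not tested. In whole testis, fewer cells of a type and less RNA per cell cannot be told apart.

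Ratios of members within a library remove the scaling of that library. The ratio of Bax to Mcl1 was 0.233, 0.233 and 0.245 in Middle, against 0.187, 0.221 and 0.205 in Control, and the groups did not overlap. The ratio of Bax to Bak1 was 0.931, 0.916 and 1.01 in Middle, against 0.713, 0.888 and 0.802 in Control, again with no overlap. The RPKM of Bax exceeded that of its fellow effector in 1 library, Middle replicate 3. Over all libraries Bak1 ran only from 4.33 to 4.54 RPKM and Mcl1 from 16.7 to 18.2. Bax was already separate between the groups, so its ratios to Mcl1 and Bak1 add no further result. Bax, Bak1 and Bcl2l2 each share exon bases with a neighbour that had more reads, so their ratios cannot be assigned to these genes alone. The ratios of Bax to Bcl2l1 and to Bcl2l2 overlapped between the groups, with means of 0.272 and 2.84 in Middle and 0.242 and 2.45 in Control. The ratio of Bax to Bcl2, the index most often quoted for this family, was 131, 126 and 68.0 in Middle and 63.7, 108 and 129 in Control. It overlapped almost wholly and rests on the few reads of Bcl2. All of these ratios but that of Bax to Bcl2 were picked after their values were seen. No p is given for them, because the members were chosen with earlier results of these data known.

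Summed by role, the effectors had 8.65 to 8.88 RPKM in Middle and 7.497 to 8.18 in Control, the BH3-only genes 41.01 to 48.9 in Middle and 36.2 to 40.9 in Control, and the anti-apoptotic genes 35.04 to 35.6 in Middle and 32.8 to 34.3 in Control. All 3 sums were higher in Middle without overlap, as were 17.9% of single tested genes. The sums hold Bax, Bad and Mcl1, the members already separate, so they add no further result. The ratio of the effectors to the anti-apoptotic genes overlapped, at 0.246 to 0.2499 in Middle and 0.227 to 0.2485 in Control. Bad alone, with any reads of its neighbours counted in, was 93.5% to 95.8% of the BH3-only sum.

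**Figure D4:**
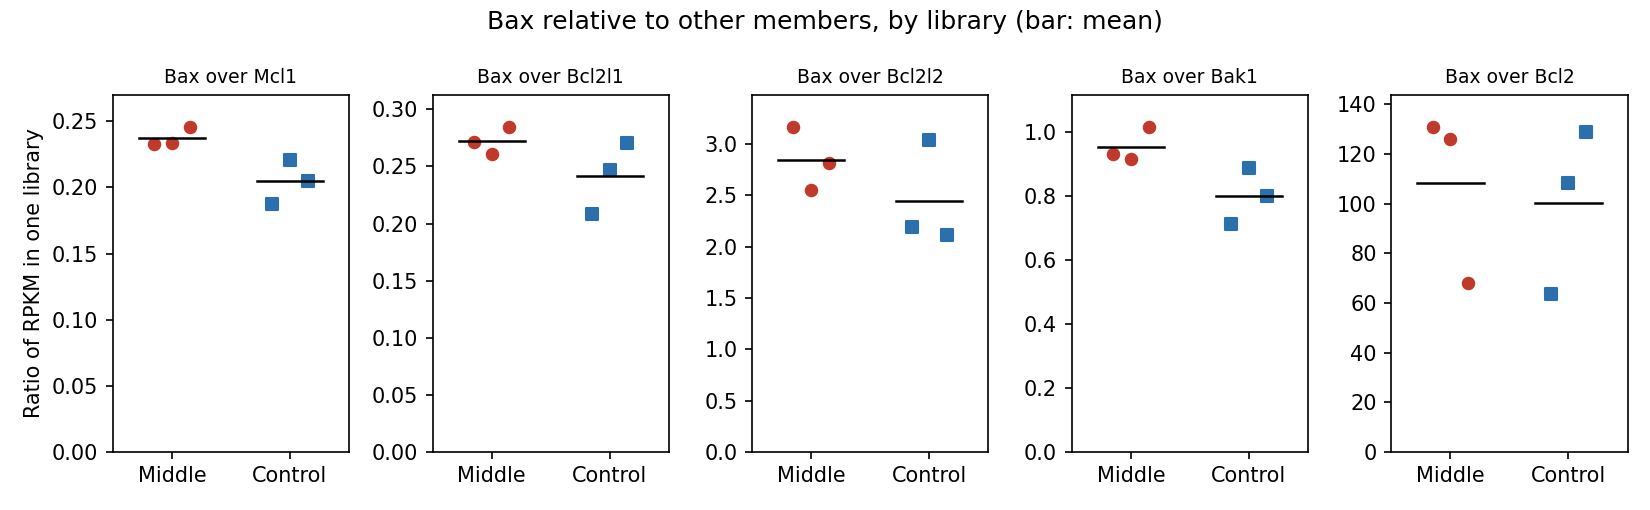
Ratio of the RPKM of Bax to that of Mcl1, Bcl2l1, Bcl2l2, Bak1 and Bcl2 within each library, Middle left of Control, with bars for group means. The groups are separate for Mcl1 and Bak1, as they are for Bax itself. They overlap for the other 3, most widely for Bcl2, where single libraries run from 63.7 to 131.

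Of 15 other genes of the family, 6 were tested and 0 passed (1 had an unadjusted p under 0.05). Their median log2 difference was 0.04, but -0.0085 without Middle replicate 1, -0.0037 without Middle replicate 3 and -0.046 by limma-voom. The highest was Bcl2l14, which encodes the divergent member BCL-G, and its level was above that of every one of the 10 members. It had 66.5, 86.1 and 87.4 RPKM in Middle, against 112, 96.7 and 103 RPKM in Control. All Middle libraries were below all Control libraries, which held for 11.4% of tested genes. Bcl2l14 averaged 80 ± 11.7 RPKM in Middle and 104 ± 7.46 in Control (SD, n = 3 each), with a log2 difference of -0.38 (SE 0.11, 95% interval -0.64 to -0.12; adjusted p = 0.178, limma). The difference was -0.25 without Middle replicate 1 and -0.40 with the GC trend removed.

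The groups overlapped for the other 5 tested relatives except Bcl2l13. Bcl2l13, a mitochondrial receptor for autophagy, had 2.63 ± 0.13 RPKM in Middle and 2.34 ± 0.07 in Control. Its Middle libraries all lay above its Control libraries, which held for 17.9% of tested genes. The mitophagy receptor genes Bnip3 and Bnip3l had 3.80 ± 0.46 and 7.68 ± 0.31 RPKM in Middle and 3.39 ± 0.21 and 7.95 ± 0.20 in Control. The effector-like gene Bok had 1.56 ± 0.41 RPKM in Middle and 1.31 ± 0.08 in Control. Bcl2l12 had 6.15 ± 0.68 RPKM in Middle and 6.66 ± 0.69 in Control (SD, n = 3 each throughout). None of these 5 passed (adjusted p 0.34 to 0.686, limma). Bcl2l12 shares exon bases with Irf3, whose reads came to 246% of its own, and Bnip3 with Gm45507, whose reads came to 21.7%.

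Downstream of the mitochondrion, 11 of 20 apoptosome and caspase genes were tested, 10 lay above 0, the median was 0.11 and 0 passed (2 had an unadjusted p under 0.05). The median was 0.070 without Middle replicate 1 and 0.034 with no minimum level. Diablo and Htra2 encode mitochondrial proteins that, once released, relieve the caspases of their inhibitors. Diablo had 88.7, 69.8 and 71.6 RPKM in Middle, against 61.9, 65.8 and 65.9 RPKM in Control, and the groups did not overlap. Its log2 difference was 0.24 (SE 0.10; adjusted p = 0.225, limma) with all libraries and 0.13 without Middle replicate 1. Of its exon bases 1193 are shared with Gm49027, whose reads came to 96.7% of those of Diablo. Htra2 had 4.26 ± 0.25 RPKM in Middle and 3.68 ± 0.16 in Control (SD, n = 3 each; adjusted p = 0.235, limma), also without overlap. Of its exon bases 25.6% are shared with Aup1, which had more reads. Cycs, the cytochrome c of somatic cells, had 16 ± 2.46 RPKM in Middle and 13.6 ± 0.48 in Control (SD, n = 3 each), with overlap.

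Upstream control genes were mixed. Of 22 genes of p53 and upstream control, 19 were tested, 12 above 0, with a median of 0.02, and 0 passed (3 had an unadjusted p under 0.05). This median was -0.0088 without Middle replicate 3 and -0.0011 without Control replicate 1. The kinase gene Akt1, whose product phosphorylates BAD, had 6.77, 6.83 and 6.65 RPKM in Middle, against 5.80, 6.11 and 5.70 RPKM in Control. The groups did not overlap, and the log2 difference was 0.17 (SE 0.06; adjusted p = 0.197, limma), or 0.08 with the GC trend removed. Vdac2, whose channel protein holds BAK in the mitochondrial membrane, had 65.7 ± 4.29 RPKM in Middle and 58.01 ± 2.57 in Control (SD, n = 3 each; adjusted p = 0.217, limma). Dynll2, a dynein light chain that binds the BH3-only protein BMF, had 172 ± 3.25 RPKM in Middle and 197 ± 16.2 in Control (SD, n = 3 each; adjusted p = 0.199, limma). The groups did not overlap for either gene.

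Of 9 death receptor genes, 3 were tested, all 3 above 0 (median 0.07), and 0 passed, with 0 at an unadjusted p under 0.05. Their median was 0.044 without Middle replicate 2 and 0.12 without Middle replicate 3. The adaptor gene Fadd had 2.12 ± 0.09 RPKM in Middle and 1.86 ± 0.03 in Control, without overlap. The receptor gene Tnfrsf1a had 2.81 ± 0.26 RPKM in Middle and 2.64 ± 0.08 in Control, and the kinase gene Ripk1 had 1.82 ± 0.11 RPKM in Middle and 1.77 ± 0.15 in Control (SD, n = 3 each throughout). Fadd shares exon bases with Faddos, whose reads came to 68.3% of its own, and Ripk1 with Serpinb6a, whose reads came to 1118%. Of 11 genes of germ cell survival signals, 2 were tested, both below 0, and 0 passed (1 had an unadjusted p under 0.05). Their median of -0.17 was -0.091 without Middle replicate 1, -0.067 with the GC trend removed and -0.015 with no minimum level. Pik3ca, which encodes a catalytic subunit of the kinase upstream of AKT, had 1.81 ± 0.25 RPKM in Middle and 2.01 ± 0.12 in Control (SD, n = 3 each), and the groups overlapped. For these lists too, limma-voom on the recovered reads called 0 genes.

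**Figure D5:**
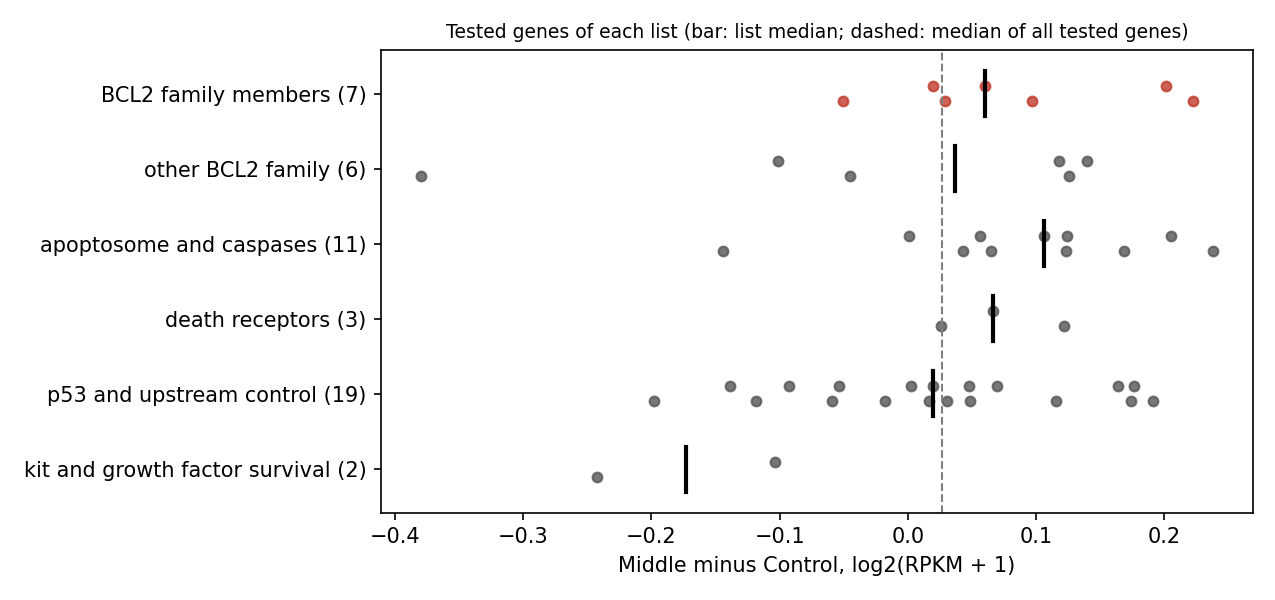
Difference between Middle and Control on the log2(RPKM + 1) scale for every tested gene of the 10 members and of the 5 lists of related genes, with the number tested in parentheses, a bar at each list median and a dashed line at the median of all tested genes, 0.03. The list medians run from -0.17 for the 2 survival signal genes to 0.11 for the apoptosome and caspase genes, and the lowest single gene is Bcl2l14 at -0.38.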

How the data were processed

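The authors deposited RPKM values for 38715 genes in 6 testis libraries, with exon coordinates and lengths, per the file headers. Per the submitters' processing notes, fastp 0.23.0 and GRCm39 were used; aligner and counting program: not given in the sources used here. RPKM times gene length gave whole multiples of 1 step per library for all values (tolerance 0.001), so the reads were recovered. No library of a group repeated another: chi-square divided by its degrees of freedom was 6.26 to 34.4, where counting noise alone would give about 2, since 79.5% to 80.7% of low read numbers were even, the pattern that counting read pairs as 2 reads gives.

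The members and the gene lists were chosen with earlier results of these data known. RPKM was transformed to log2(RPKM + 1), which understates the change of low genes, only genes averaging 1 RPKM or more in a group were kept, and Middle was set against Control by limma 3.58.1 (R 4.3.3) with a trended prior (two-sided, Benjamini-Hochberg). Named were all 10 members, the 3 genes of each list with the smallest p, and every other BCL2 family gene of at least 1 RPKM; some genes that this rule names are not reported here. GC content came from GENCODE M21 by symbol (34736 genes), and promoter sequences from RefSeq. Alternatives were pseudocounts of 0.1 and 0.01, no filter or a minimum of 0.5 RPKM, scaling by upper quartile or by median of ratios, limma-voom on reads (10 or more in 3 libraries), a replicate block, removal of the GC trend (loess, span 0.5), an adjusted p of 0.1, and leaving out each library.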

Additional observations from a re-analysis of the deposited data

How the results depend on the processing

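No member passed under any of the 16 alternatives. A changed filter or the replicate block cannot move a difference, so these settings keep its direction by construction. Of 105 recomputed differences of the 7 tested members, with these settings included, 100 kept their direction. The lowest adjusted p was 0.158 (limma). The other 5 changed sign: with the GC trend removed, Bak1 was at -0.065, Bcl2l2 at -0.056 and Mcl1 at -0.0076, and Bcl2l2 was at -0.0014 without Middle replicate 2 and at -0.030 without Control replicate 2, in a range of -0.030 to 0.10 with 1 library left out. The cause was not tested. With no minimum level the median of the other BCL2 family genes was -0.0081, and with upper-quartile scaling that of the p53 list was -0.00057. Over all genes, 8 calls became 0 without a filter (4204 genes at an unadjusted p under 0.05), 0 with a replicate block (2267) and 23 at an adjusted p of 0.1 (limma). With 1 library left out they were 0 to 3: leaving out Middle replicate 1 gave 1, leaving out Control replicate 1 gave 3, and each of the other 4 gave 0. The deviations of same-numbered libraries had correlations of -0.153, -0.119 and 0.00544, against -0.0912 to 0.1635 for libraries of other numbers. With 3 libraries in a group, this cannot settle whether equal numbers share an origin. The replicate block called 0 members, while 1 of the 7 had an unadjusted p under 0.05 (limma). The log2 difference of the Bax to Bcl2 ratio was 0.11, and -0.19 to 0.42 with 1 library left out; the order of levels was the same each time. The low reads of Bid, Bbc3 and Bcl2 limit what can be said of them.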

Other observations

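The following genes belong to the apoptosome list and were singled out after their values were seen. Casp9, which starts the cascade at the apoptosome, had 0.577 ± 0.115 RPKM in Middle and 0.584 ± 0.026 in Control, and Apaf1, the scaffold of the apoptosome, 0.132 ± 0.021 RPKM in Middle and 0.121 ± 0.015 in Control (SD, n = 3 each). Both overlapped between the groups and lay under 1 RPKM, so they were not tested. They rested on 48 to 207 reads a library. Casp8, which starts the cascade at death receptors, had 1.17 ± 0.13 RPKM in Middle and 1.09 ± 0.23 in Control (SD, n = 3 each; adjusted p = 0.758, limma). Cyct, the testis form of cytochrome c, had 162 ± 16.5 RPKM in Middle and 161 ± 6.41 in Control (SD, n = 3 each), a log2 difference of 0.001 (adjusted p = 0.996, limma).

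Trp53, which encodes p53, was also singled out after its values were seen, as the regulator of Bax and Bbc3. It had 1.51, 1.18 and 1.23 RPKM in Middle, against 0.962, 0.953 and 1.13 RPKM in Control. The groups did not overlap, which held for 17.9% of tested genes in that direction, and the log2 difference of 0.19 did not pass (adjusted p = 0.257, limma).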
